A study of Mus musculus with 5 samples.

Results

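Voltage-gated calcium and sodium channel genes and potassium channel genes were followed on arrays that read the RNA pulled down with SMN, the survival of motor neuron protein. The members were the 127 genes, of 19937 with a probe set of their own, whose only annotated symbol begins with the channel prefixes Cacna, Cacnb, Cacng, Scn (with a number and the letter a or b) or Kcn. They comprised 24 calcium, 11 sodium and 92 potassium channel genes. The potassium names include 3 opposite-strand RNAs (Kcnd3os, Kcnmb4os1 and Kcnmb4os2), which encode no channel subunit. The genes were chosen by name, and measured values entered in 2 ways. Each gene was read at its brightest probe set over the 5 arrays, and genes were set apart by whether they lay above each array's background, the median of its presumed control probe sets. The difference between the groups did not enter the choice, but the genes were proposed with results of these data known, Cacng3 among them.

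Voltage-gated channels open a pore for one ion when the membrane depolarizes. Sodium channels carry the upstroke of the action potential, calcium channels couple it to transmitter release and gene expression, and potassium channels restore and hold the resting potential. Each pore-forming subunit works with accessory subunits that set its surface level and gating. Motor neurons depend on all these families to fire and to release acetylcholine at the muscle. Gamma subunits of the calcium channel family also accompany AMPA-type glutamate receptors, where they are known as TARPs.

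All samples came from NSC-34, a murine line made by fusing neuroblastoma cells with spinal motor neurons. The 3 FLAG-SMN IP arrays held RNA from cells with a 3XFLAG-tagged full-length SMN construct, and the 2 control IP arrays held RNA from NSC-34 cells without any FLAG construct. Both kinds of cell were differentiated in 1% serum, given 3 µg/ml doxycycline for 3 days, crosslinked with ultraviolet light (400 mJ/cm2) and taken through anti-FLAG precipitation. The differentiation time is given as 48 hours in the treatment protocol and as 3 days in the growth protocol. The labels do not say which promoter drives the construct, whether the line is 1 clone, or whether replicates were grown separately. The p-values therefore reflect the spread among these 5 arrays alone, and that spread may be technical. RNA of the lysates was not analysed here, so a different level in the cells and a different share carried into the precipitate cannot be told apart. In the same way, fewer cells of a type and less RNA per cell cannot be told apart.

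Values are deposited log2 signals, and differences are FLAG-SMN IP minus control IP on the log2 scale. The array backgrounds were between 4.30 and 4.45 in FLAG-SMN IP and between 4.49 and 4.55 in control IP. The limit was therefore higher for the controls. Differences with low values set to the background carry this offset, which is -0.16 for a gene below background on all 5 arrays. FLAG-SMN IP replicate 1 stood apart from replicates 2 and 3, with Pearson r of 0.964 and 0.968 to them across probe sets against 0.989 between those 2, so results are given with and without it. Of the motor neuron markers, Mnx1 and Slc5a7 lay below background on all 5 arrays and Chat on 1 of them, while Isl1 and Slc18a3 lay above it on all 5. Markers of noradrenergic neuroblastoma lay above background in all 4 measured genes. Their summed linear signal was 1293 to 1642 in FLAG-SMN IP and 1590 to 1887 in control IP, most of it from Hand2 (difference -0.02) and Phox2a (-0.19). The other 2, the catecholamine enzyme genes Dbh (-2.23, limma adjusted p = 0.11) and Th (-1.94, adjusted p = 0.096), were lower in each FLAG-SMN array than in both controls. The 5 neuronal markers summed to 282 to 898 against 552 to 687. Of these 5, 4 had negative differences, with a median of -0.36, and the positive one, Stmn2, lay below background on every array. Map2, at -1.09 (limma adjusted p = 0.209), was lower in each FLAG-SMN array than in both controls. The 6 motor neuron markers summed to 167 to 171 against 182 to 193. Of these 6, 4 had positive differences and the median was 0.10, but Mnx1 and Slc5a7 among them lay below background on every array. With low values set to the background, Lhx3 was at 0.28, Chat at -0.04 and Slc18a3 at -0.11. The most negative was Isl1 at -0.72, with overlapping groups. The signs of the 6 therefore do not settle how widely the lower sum was shared. The part of these marker differences in the channel results was not tested. Astrocyte markers summed to 60.2 to 62.0 against 55.9 to 69.0, and those of oligodendrocytes, fibroblasts, muscle and microglia overlapped between the groups as well.

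Above background on all 5 arrays were 53 of the 127 genes: 17 of 24 calcium, 4 of 11 sodium and 32 of 92 potassium genes. A further 37 were above it on some arrays and 37 on none. The sodium pore genes Scn1a, Scn3a, Scn7a and Scn11a lay below background on every array, as did 10 of 16 potassium accessory genes, among them Kcne1 to Kcne4. Just inside the limit, the smallest margin over the arrays was 0.072 for Kcna7 and 0.073 for Kcnk5. Just outside it, the margins of Kcnab3 and Kcnmb4 were -0.0081 and -0.014. A gene low in one group and high in the other is left out by this limit, which applied to Cacng3, Scn2b and Kcnj14; these are described apart.

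One channel gene of 127 passed the adjusted threshold of 0.05 and none was higher past it; over all genes, 0.0251% were called lower and 0.00502% higher. That gene was Cacng3, a TARP subunit. The FLAG-SMN arrays read 4.03, 4.04 and 4.22 and the control arrays 6.79 and 6.73. All 3 FLAG-SMN values lay below their arrays' backgrounds and both control values well above theirs, with no overlap. The difference was -2.66 (95% confidence interval -3.08 to -2.24; limma adjusted p = 0.0243), and -2.40 with the values below background set to the background of their array. Its size barely moved under the alternatives, from -2.72 to -2.63, but the adjusted p ran from 0.00562 to 0.378. Replicate number 3 occurs only in FLAG-SMN IP, so a block on that number gave the same difference as leaving that array out. The call held with FLAG-SMN IP replicate 1 left out (adjusted p = 0.00562). It was lost when any other array was left out (limma adjusted p from 0.131 to 0.378), with cyclic loess scaling (0.0630), with the replicate number as a block (0.0571) and over all probe sets of the table (0.0919).

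The calcium channel genes leaned toward lower values in FLAG-SMN IP. Of the 17 above background, 14 had negative differences, and 5 were lower and 0 higher at an unadjusted p under 0.05. Over all 12479 genes above background the shares called so were 10.6% lower and 4.77% higher. The family's median difference was -0.41, against -0.02 over all genes above background, and each of the 17 had an adjusted p above 0.05. In 7 of the 17 the whole FLAG-SMN group lay below the whole control group, and in 0 above it; over all genes above background these shares were 19.4% and 12.3%. Without FLAG-SMN IP replicate 1, 6 of the 17 were lower and 0 higher (over all genes 11.8% and 6.37%), and the median was -0.43. Leaving out FLAG-SMN IP replicate 2 or replicate 3 gave 4 lower each time (23.5%, against 8.19% and 8.42% over all genes above background). The median was -0.27 without control IP replicate 1 and -0.41 without control IP replicate 2. Over all 24 calcium genes, dim ones included, the median was -0.28, with 6 lower and 0 higher at an unadjusted p under 0.05, against 7.21% and 3.25% over all genes.

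Among the pore-forming alpha1 genes, 3 of the 6 above background were lower at an unadjusted p under 0.05. Over all genes above background 10.6% were lower at that level. Cacna1a encodes the pore of the P/Q-type channel, the main trigger of transmitter release at mature motor nerve endings. Its FLAG-SMN arrays read 5.85, 5.68 and 5.53, and the control arrays 6.77 and 6.34. Its groups did not overlap, and the difference was -0.87 (SE 0.21; 1.83-fold lower; unadjusted p = 0.00489, limma adjusted p = 0.226). Cacna1b, the pore of the N-type channel of many presynaptic terminals, was at 5.82, 5.07 and 5.26 against 6.20 and 6.44. The highest FLAG-SMN value came from replicate 1, and the difference of -0.93 (SE 0.26; limma adjusted p = 0.274) became -1.15 without it (adjusted p = 0.0533; 0.0533 to 0.758 over its alternatives). Cacna1i, a low-voltage-activated T-type pore, was at 5.65, 5.43 and 5.68 against 6.27 and 6.79. Its difference was -0.94 (SE 0.22; limma adjusted p = 0.215), again with every FLAG-SMN array below both controls.

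The other T-type pores had values that overlapped between the groups. Cacna1h gave 6.37, 6.21 and 5.91 against 6.10 and 6.31, a difference of -0.04 (95% confidence interval -0.54 to 0.45). Cacna1g gave 0.14 (95% confidence interval -0.31 to 0.59). The L-type pore Cacna1c, which links depolarization to gene expression in neurons, was at 6.90, 7.40 and 7.67 against 7.31 and 8.16. Its groups overlapped, with a difference of -0.41 (limma adjusted p = 0.815) that was 0.0085 without control IP replicate 2. The remaining alpha1 genes, Cacna1d, Cacna1e, Cacna1f and Cacna1s, each lay below background on at least 1 array and had unadjusted p above 0.05.

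Of the alpha2delta genes, whose products promote surface delivery of the pore, Cacna2d1 was measured by 2 probe sets with negative differences at both. The brightest read 6.11, 6.28 and 6.64 against 6.94 and 7.37, a difference of -0.81 (SE 0.24; unadjusted p = 0.0119, limma adjusted p = 0.295). The second read 5.55, 6.09 and 6.11 against 7.28 and 7.13, a difference of -1.29 (adjusted p = 0.141). At either probe set the groups were apart on every array. Cacna2d2 gave -0.28 and Cacna2d4 -0.17, both with overlapping groups. The cytoplasmic beta subunits, which bind the pore's first linker, differed on neither side beyond the test's threshold. Cacnb1 stood at 7.20, 6.82 and 6.53 against 7.09 and 7.12 (-0.26, limma adjusted p = 0.856), and Cacnb2 had a difference of 0.21. The dim Cacnb4, named after its value was seen and above background on 2 arrays, was at 4.32, 4.20 and 4.49 against 4.90 and 4.52, a difference of -0.37 (limma adjusted p = 0.632) with no overlap. Cacnb3 was not analysed here.

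**Figure D1:**
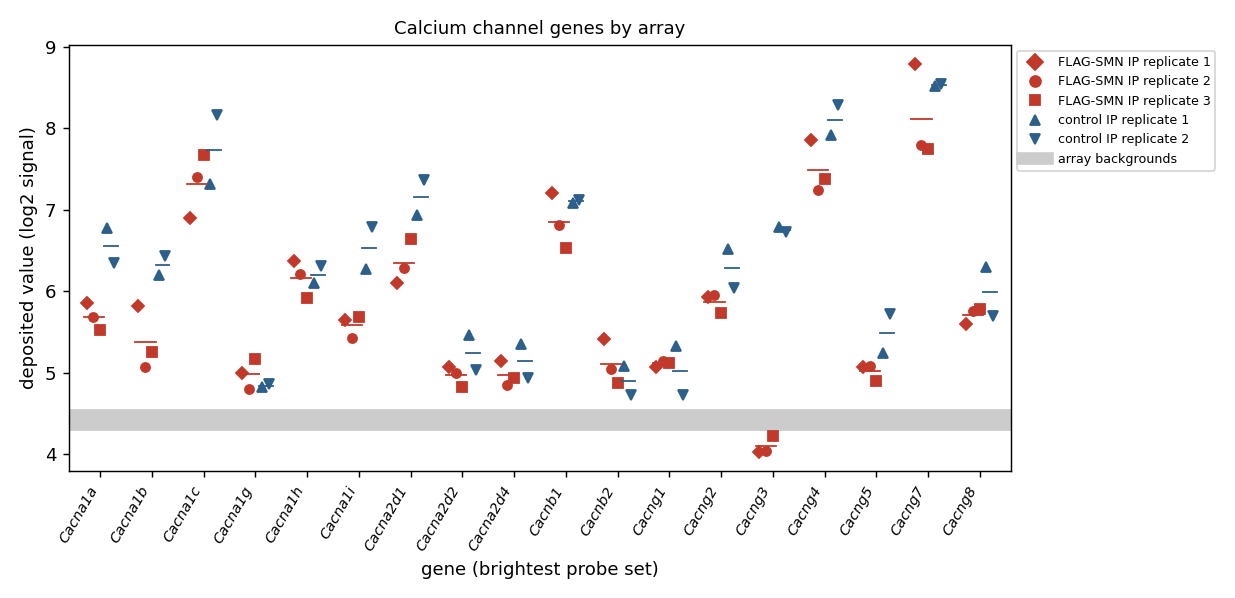
Log2 signal (vertical axis) of the 17 calcium channel genes above background on all 5 arrays, and of Cacng3, at the brightest probe set of each gene (horizontal axis, ordered alpha1, alpha2delta, beta, gamma). Points are single arrays, red for FLAG-SMN IP and blue for control IP, short lines are group means, and the grey band spans the array backgrounds; Cacng3 is above the band in both control arrays and below it in the 3 FLAG-SMN arrays.

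The gamma genes besides Cacng3 had smaller differences of the same sign in 5 of 6. Cacng4, a TARP, was at 7.85, 7.24 and 7.37 against 7.91 and 8.29. Its groups did not overlap, although FLAG-SMN IP replicate 1 lay close to control IP replicate 1, and the difference was -0.61 (SE 0.25; unadjusted p = 0.0441, limma adjusted p = 0.461). Cacng2, known as stargazin and the best studied TARP, was at 5.93, 5.95 and 5.73 against 6.52 and 6.05, a difference of -0.41 (limma adjusted p = 0.593). That probe set lists no RefSeq transcript of the gene. The second Cacng2 probe set, which does, gave -0.61 (limma adjusted p = 0.55), with overlapping groups. Cacng7 was at 8.79, 7.79 and 7.75 against 8.52 and 8.55. The groups overlapped through FLAG-SMN IP replicate 1, without which the difference of -0.42 became -0.76 (unadjusted p = 0.00463, limma adjusted p = 0.131). Cacng5 gave -0.47 and Cacng8 -0.28. Cacng1, known as the gamma subunit of the skeletal muscle calcium channel, gave 0.09.

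Several gamma genes neighbour each other in the RefSeq order of mouse protein-coding genes (GRCm38.p6). Cacng1, Cacng4 and Cacng5 follow one another, with differences of 0.09, -0.61 and -0.47, and Cacng7 and Cacng8 are adjacent, with -0.42 and -0.28. Cacng6, which follows Cacng8, was not analysed here. Cacng3 lies between Prkcb and Rbbp6, with no other gamma gene beside it.

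Sodium channel genes were few above background, and their values turned on single arrays. The 4 above it (Scn2a, Scn3b, Scn8a and Scn9a) had a median difference of -0.17 with 0 lower and 0 higher at an unadjusted p under 0.05. Over all genes above background 10.6% were lower and 4.77% higher at that level. Without FLAG-SMN IP replicate 1 the median was -0.28 and 2 were lower, Scn3b and Scn8a, where 11.8% of all genes above background were lower. Without FLAG-SMN IP replicate 2 the median was 0.02. Scn8a encodes the main pore of mature axon initial segments and nodes. It was at 6.59, 6.13 and 6.20 against 6.66 and 6.98, apart on every array but by little, with a difference of -0.51 (SE 0.22; unadjusted p = 0.0535, limma adjusted p = 0.492).

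The sodium pore gene Scn9a, known from sensory and sympathetic neurons, was at 5.99, 6.39 and 6.84 against 6.09 and 6.82. Its groups spanned the same range, with a difference of -0.05 (95% confidence interval -0.82 to 0.72). Its second probe set read 4.80, 5.65 and 6.10 against 5.58 and 6.48, a difference of -0.51 (limma adjusted p = 0.828), also with overlapping groups. Scn2a, an early and unmyelinated-axon pore, was at 5.80, 5.84 and 6.01 against 5.53 and 6.14. It carried 14 probe sets, whose differences ran from -0.14 to 0.43, 11 positive and 3 negative, each with an unadjusted p above 0.05. At those probe sets FLAG-SMN IP replicate 1 lay between 0.60 below (difference -0.60) and 2.02 above the mean of replicates 2 and 3. Over all 3 families, a further 3 probe sets carried several gene symbols with a channel gene among them, and were not used for any member.

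Of the sodium beta subunits, adhesion-like proteins that adjust the pore's gating, Scn2b and Scn3b were the most uneven. Scn2b was at 4.54, 4.17 and 4.05 in FLAG-SMN IP and at 5.26 and 5.20 in control IP. Both controls were above background, whereas FLAG-SMN IP replicates 2 and 3 were below theirs. The difference was -0.97 (SE 0.21; unadjusted p = 0.00259, limma adjusted p = 0.194), or -0.84 with low values set to the background. Without FLAG-SMN IP replicate 1 it was -1.12 and passed (adjusted p = 0.0476; 0.0476 to 0.661 over its alternatives), and it passed under no other alternative. With that array left out, 0.772% of all genes were called lower and 0.381% higher, and Cacng3 and Scn2b were the 2 channel genes called.

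Scn3b was at 7.60 in FLAG-SMN IP replicate 1 and at 5.34 and 5.37 in replicates 2 and 3, with 6.54 and 6.27 in control IP. Replicate 1 was the highest of the 5 arrays and its 2 companions were the lowest, a gap of 2.24 that was the largest of any channel gene. The difference was -0.30 (SE 0.67; limma adjusted p = 0.969) and -1.05 without replicate 1 (unadjusted p = 0.00113, adjusted p = 0.0686; 0.0686 to 1.00 over its alternatives). The same array was the highest of its group in the neuronal marker Tubb3, at 9.09 against 7.05 and 6.98.

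**Figure D2:**
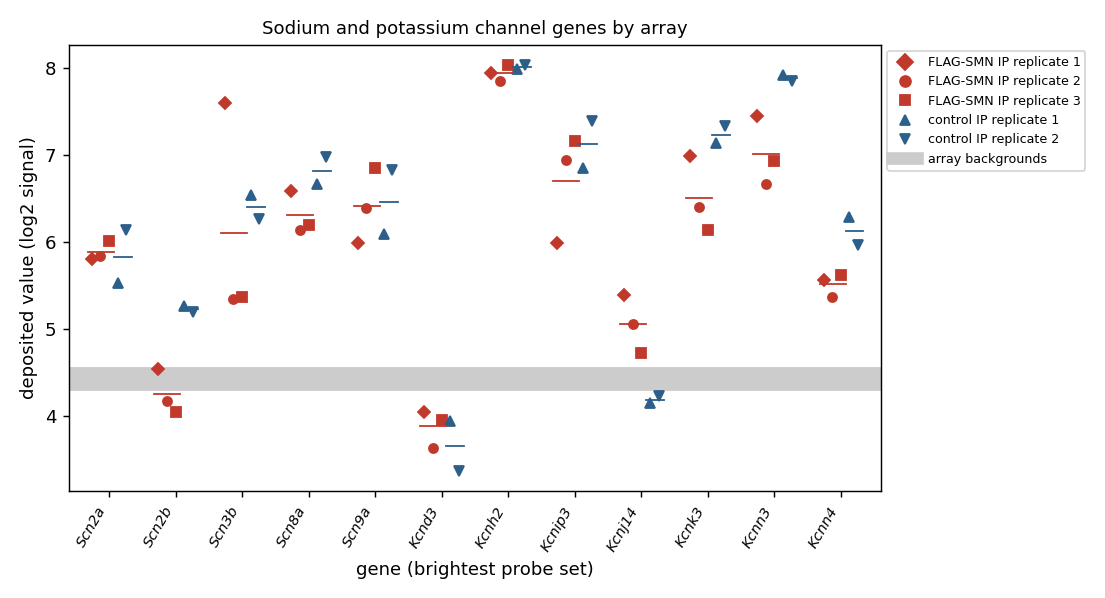
Log2 signal (vertical axis) of the named sodium and potassium channel genes except Kcnma1, with Kcnn4 added, at the brightest probe set of each gene (horizontal axis). Points are single arrays, red for FLAG-SMN IP and blue for control IP, short lines are group means, and the grey band spans the array backgrounds; Scn3b is at 7.60 in FLAG-SMN IP replicate 1 and at 5.34 and 5.37 in the other 2 arrays of that group.

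Potassium channel genes as a family did not lean either way. Of the 32 above background, 17 had negative and 15 positive differences, with a median of -0.0080. At an unadjusted p under 0.05, 3 were lower and 0 higher, which is 9.38% lower where all genes above background had 10.6%. The FLAG-SMN group lay wholly below the controls in 4 of the 32 and wholly above them in 2, which is 12.5% and 6.25% against 19.4% and 12.3% over all genes above background. Without FLAG-SMN IP replicate 1, 4 were lower (12.5%, against 11.8% over all genes above background) and the median was -0.03. The number lower was 2 without FLAG-SMN IP replicate 3 (6.25%, against 8.42% over all genes above background). It was 1 without FLAG-SMN IP replicate 2 (3.125%, against 8.19%). The median was 0.11 without control IP replicate 1 and -0.09 without control IP replicate 2. Over all 92 genes, 6 were lower and 1 higher at that level (6.52% lower, against 7.21% lower and 3.25% higher over all genes), with a median of 0.02.

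The 3 lower potassium genes above background lay among the calcium-activated and the tandem-pore channels. Kcnn3, a small-conductance channel opened by calcium that shapes the pause after a spike, was at 7.45, 6.66 and 6.93 against 7.92 and 7.85. The groups did not overlap, and the difference was -0.87 (SE 0.26; 1.83-fold lower; unadjusted p = 0.0129, limma adjusted p = 0.30). Without FLAG-SMN IP replicate 1 it was -1.09 (adjusted p = 0.0614; 0.0614 to 0.743 over its alternatives). Kcnn4, the intermediate-conductance member, was at 5.57, 5.36 and 5.62 against 6.28 and 5.96, a difference of -0.60 (unadjusted p = 0.0189, limma adjusted p = 0.338). It was named after its value was seen. Kcnn1 ran the other way, at 6.08, 5.55 and 5.91 against 5.39 and 5.40, with a difference of 0.45 (unadjusted p = 0.077), so members of this small-conductance group did not share a sign.

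Kcnk3 encodes TASK-1, an acid-sensitive leak channel of motor neurons. It was at 6.99, 6.40 and 6.13 against 7.13 and 7.33. FLAG-SMN IP replicate 1 came closest to the controls, and the difference of -0.73 (SE 0.28; unadjusted p = 0.0359, limma adjusted p = 0.426) was -0.97 without it. The other 6 tandem-pore genes above background ran from -0.27 for Kcnk5 to 0.45 for Kcnk1, and the 7 had a median of 0.05.

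Voltage-gated potassium subunits had differences on both sides of 0. The 12 above background, of 35, had differences from -0.32 (Kcnh4) to 0.19 (Kcna3), a median of -0.03, and 0 with an unadjusted p under 0.05. Over all genes above background 10.6% were lower and 4.77% higher at that level. In 0 of the 12 did the groups lie apart on every array. Over all genes above background the FLAG-SMN group lay wholly below the controls in 19.4% and wholly above in 12.3%. Kcnh4, named after its value was seen, had a difference of -0.53 without FLAG-SMN IP replicate 1 and an unadjusted p of 0.0270 in limma (adjusted p = 0.285). Kcnh2, the ERG channel that repolarizes heart and neuronal membranes, was at 7.94, 7.85 and 8.03 against 7.99 and 8.03. Its difference was -0.06, with a 95% confidence interval of -0.48 to 0.35. Kcnd3, an A-type pore, lay below background on all 5 arrays (4.05, 3.63 and 3.96 against 3.94 and 3.36), so its difference of 0.23 has no reading.

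Some dim voltage-gated subunits had unadjusted p under 0.05 and lay outside the limit. Kcnd2, another A-type pore, was at 3.92, 4.24 and 3.91 against 4.45 and 5.45. Only control IP replicate 2 was above background, so the difference of -0.93 rests on that array. Kcnh7, an ERG relative, was at 4.0, 4.53 and 4.09 against 4.72 and 5.13, with both controls and FLAG-SMN IP replicate 2 above background. Its difference was -0.71 (limma adjusted p = 0.358). Kcna5 was below background on all 5 arrays. These 3 were named after their values were seen.

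Inward rectifiers, which hold the resting potential, gave 0 lower genes and 1 higher at an unadjusted p under 0.05 over all 15. Over all genes 7.21% were lower and 3.25% higher at that level. The higher inward rectifier was Kcnj14, known from brainstem motor neurons. Its FLAG-SMN arrays read 5.39, 5.06 and 4.73, above background on each array, and its control arrays 4.15 and 4.23, below it on both. The difference was 0.87 (SE 0.23; unadjusted p = 0.00794, limma adjusted p = 0.256), or 0.54 with the control values set to the background. The 4 inward rectifiers above background on all arrays (Kcnj4, Kcnj9, Kcnj11 and Kcnj12) had differences from -0.15 to 0.17.

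Accessory subunits of potassium channels were mostly dim. Of the 3 above background, Kcnip3, a calcium sensor that binds A-type channels and is also known as the repressor DREAM, was at 5.98, 6.94 and 7.16 against 6.85 and 7.39. Its low value came from FLAG-SMN IP replicate 1, and the difference of -0.43 was -0.07 without that array. Kcnab2 gave 0.22 and Kcnmb3 0.44, both with adjusted p above 0.05. The opposite-strand RNAs gave 0.28 for Kcnd3os, 0.26 for Kcnmb4os1 and 0.02 for Kcnmb4os2.

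Kcnma1, the pore of the large-conductance calcium-activated channel, was uncertain because its 2 probe sets disagreed in level. The brightest read 13.3, 13.2 and 13.1 against 13.3 and 13.4, but its annotation lists no RefSeq transcript of the gene. The second, which does list them, read 3.58, 3.60 and 3.38 against 3.72 and 3.51, below background on all arrays. The differences were -0.12 and -0.09. Of the 127 brightest probe sets, 122 list a RefSeq transcript of their gene; the others without one were Cacnb2, Cacng2, Kcnk15 and Kcnmb4os2.

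**Figure D3:**
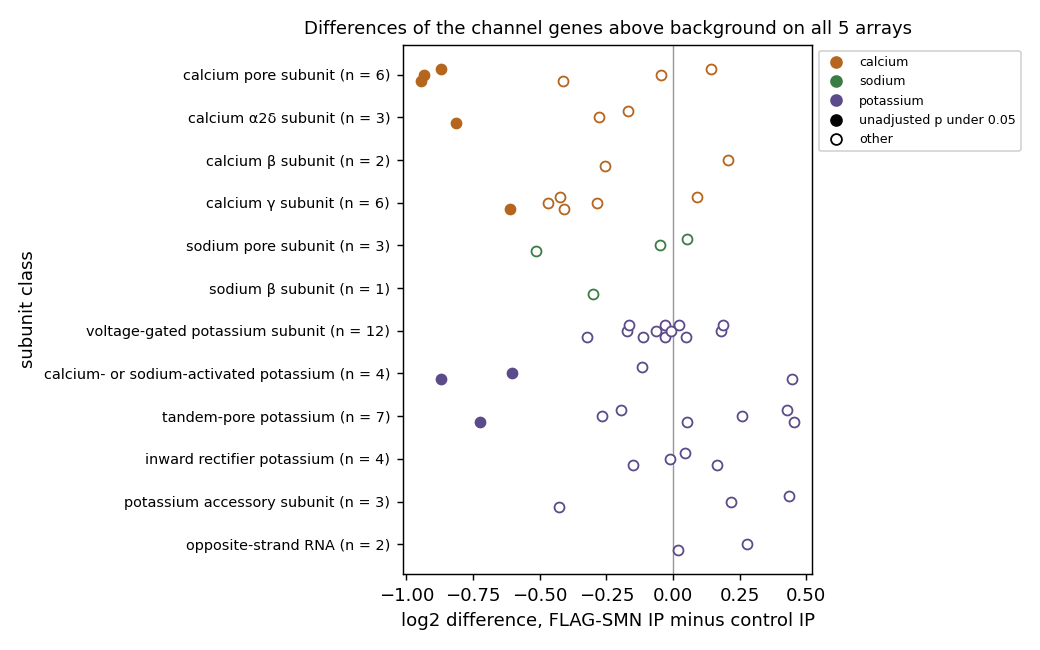
Log2 difference, FLAG-SMN IP minus control IP (horizontal axis), of the 53 channel genes above background on all 5 arrays, by subunit class (vertical axis; points are spread vertically for sight only). Filled points had an unadjusted limma p under 0.05: 5 calcium and 3 potassium genes, all to the left of 0; Cacng3, Scn2b and Kcnj14 are not plotted because they lay below background on some arrays.

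FLAG-SMN IP replicate 1 was higher than both other arrays of its group in 9 of 17 calcium, 2 of 4 sodium and 19 of 32 potassium genes above background, and in 43.96% of all genes above background. The median gap to the mean of replicates 2 and 3 was 0.16 for calcium, 0.15 for sodium and 0.13 for potassium genes, against 0.04 over all genes. The control arrays differed by family as well: replicate 1 minus replicate 2 had a median of -0.03 in calcium, -0.46 in sodium and 0.24 in potassium genes, and -0.12 over all genes. Over the 53 genes, 8 were lower and 0 higher at an unadjusted p under 0.05. That is 15.1% lower, where all genes above background had 10.6%. Without FLAG-SMN IP replicate 1 they were 12 and 0 (22.6% lower against 11.8% over all genes), and without FLAG-SMN IP replicate 2 they were 5 and 1 (9.43% against 8.19%). Leaving out FLAG-SMN IP replicate 3 gave 6 and 0 (11.3% against 8.42%). Leaving out control IP replicate 1 gave 6 and 2 (11.3% against 10.5%), and leaving out control IP replicate 2 gave 5 and 0 (9.43% against 5.30%).

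**Figure D4:**
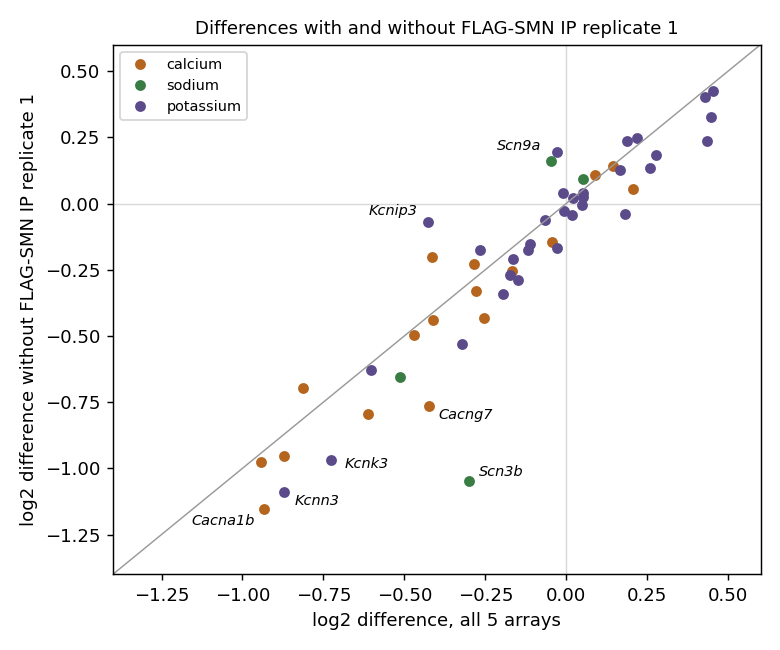
Log2 difference of each of the 53 channel genes above background from all 5 arrays (horizontal axis) against the same without FLAG-SMN IP replicate 1 (vertical axis), coloured by ion; the diagonal marks equal values. Scn3b moves from -0.30 to -1.05 and Kcnip3 from -0.43 to -0.07, while most genes stay near the line.

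Genes of related channels and of proteins that bind channels were read from a list that included Nfasc and Snap25, whose values were already known. Of 39 partner genes, 37 were measured and 26 lay above background; of these 26, 11 were lower and 2 higher at an unadjusted p under 0.05, which is 42.3% lower where all genes above background had 10.6%. Their median difference was -0.35, and 0 of the 37 passed the adjusted threshold. The 11 lower genes included Nfasc (-1.99) and Snap25 (-2.14). The partners below are examples named by no set rule, and others such as Unc79 (-1.37) were lower too. Cask, a scaffold that binds N-type calcium channels, was at 6.93, 7.62 and 7.71 against 9.08 and 9.23, a difference of -1.73 (limma adjusted p = 0.115). Cntnap2, which clusters potassium channels beside nodes, gave -0.94 (adjusted p = 0.195), and the AMPA receptor partner Cnih2 gave -0.81 (adjusted p = 0.413). Gem, a small GTPase that binds calcium channel beta subunits, gave 0.79 (adjusted p = 0.347).

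Other channels of the superfamily were fewer. Of 25 listed, 22 were measured and 11 lay above background, with 2 lower (Hcn4, a pacemaker channel, at -0.70, and the lysosomal channel Tpcn1 at -0.89) and 1 higher at an unadjusted p under 0.05, and 0 past the adjusted threshold. These are 18.2% and 9.09% of the 11, against 10.6% and 4.77% over all genes above background. The higher gene was Trpc1, a cation channel subunit, at 5.57, 7.95 and 8.03 against 5.13 and 5.35. FLAG-SMN IP replicate 1 was close to the controls there, and replicates 2 and 3 made up the difference of 1.95 (limma adjusted p = 0.406).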

How the data were processed

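RNA of 3 FLAG-SMN IP and 2 control IP samples was measured on single-colour Affymetrix arrays. The deposited values are log2 signals, made by the authors with RMA, per the submitters' processing notes, with no version or setting stated there. RMA forces arrays toward a common distribution, so a general difference in RNA amount is not visible. The table held 34760 probe sets. The 6573 with IDs below the lowest annotated ID were presumed controls; their median on each array served as its background, and 28187 were tested. Of these, 21640 carried 1 gene symbol, and by gene ID all 127 members matched the RefSeq table with 0 symbols changed.

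Differences came from limma 3.58.1 under R 4.3.3 (2-sided moderated test from lmFit and eBayes, without a block; 3 residual and 3.8 prior degrees of freedom), with Benjamini-Hochberg adjustment over the 28187 probe sets. The fit was tested on simulated data. Unadjusted p-values are given only to describe. The number of arrays limits the precision. Members and lists were chosen with earlier results of these data known. Named were all genes past the threshold, the 4 brightest of each family, the 8 most negative and up to 5 most positive differences with an unadjusted p under 0.05 above background on every array of the brighter group, and 10 measured of 13 fixed genes, 22 in all. Alternatives changed scaling, centring, variance trend, block, probe sets, background and arrays. Figures used matplotlib 3.10.9 in Python 3.11.15.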

Additional observations from a re-analysis of the deposited data

How the results depend on the processing

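The number of channel genes past the adjusted threshold was 1, with 0 under cyclic loess, with the replicate number as a block, or over all probe sets of the table; leaving out 1 array gave 0 to 2. Cacng3 then had adjusted p of 0.0630, 0.0571 and 0.0919 in limma. The number above background lower at an unadjusted p under 0.05 was 8 of 53 (15.1%, against 10.6% over all genes above background). It was 3 of 10 at the 75th percentile background, where no share over all genes is given. With no background filter it was 13 of 127 (10.2%, against 7.21% over all genes). With 1 FLAG-SMN array left out it was 5 to 12 of the 53. The number higher was 0, but 1 with background on the mean of the arrays, with no filter or above background in the brighter group (an alternative chosen after seeing the data), and 0 to 2 with 1 array left out. The calcium median of -0.41 was -0.32 with the replicate block, -0.33 with background on the mean and -0.28 with no filter, and -0.43 to -0.27 with 1 array left out. The sodium median of -0.17 was -0.51 at the 75th percentile background, which left 1 gene, and -0.33 to 0.018 with 1 array left out; the potassium median ran from -0.087 to 0.11 in that case. Same-numbered arrays correlated at 0.13 and -0.20 in their deviations from group means, and FLAG-SMN IP replicate 3 with control IP replicate 1 at -0.42. With 2 control arrays the control deviations mirror each other, so these values cannot decide whether the numbers pair samples. Number 3 occurs only in FLAG-SMN IP, so the block gave the same differences as leaving that array out. With the block Scn2a was -0.011 and Scn3b 0.067. With 1 array left out, the differences of Scn2a ran from -0.25 to 0.36, of Scn3b from -1.05 to 0.080, of Scn9a from -0.41 to 0.32, of Cacna1c from -0.84 to 0.0085 and of Kcnd3 from -0.061 to 0.51. The other 17 named genes kept their direction under all 11 alternatives, but not all of these could change it. The variance trend and the use of all probe sets of the table leave each difference as it was. Averaging probe sets does the same for genes with 1 probe set. Leaving out the opposite-strand RNAs or reading Kcnma1 at its other probe set, both chosen after seeing the data, moved no count. The cause of these changes was not tested.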
